A study of Mus musculus with 8 samples.

Results

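Replication-dependent histone genes encode the H1, H2A, H2B, H3 and H4 proteins that package newly copied DNA. In the deposited table of mouse distal colon they were taken as every gene whose symbol begins with Hist1h to Hist4h, which gave 70 of 52143 genes. GENCODE M21 lists 67 of the 70 as protein coding and 3 as pseudogenes, on the GRCm38 build: 56 of the Hist1 family on chromosome 13, 10 of the Hist2 family on chromosome 3, 3 of the Hist3 family on chromosome 11 and Hist4h4 alone on chromosome 6. By class they were 6 genes for H1, 20 for H2A, 19 for H2B, 12 for H3 and 13 for H4.

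The RNAs of these genes are made in S phase and differ from other mRNAs at their 3′ end. Instead of a poly(A) tail, most end a few bases after a short stem-loop. The stem-loop binding protein Slbp holds it, and the U7 small nuclear RNP helps to cut the precursor just after it. Some members can also be read through to a downstream poly(A) signal, above all in cells that have stopped dividing, and a library primed on poly(A) tails sees mainly those longer forms. The replacement variants, such as H3f3a and H2afz, are made outside S phase from ordinary polyadenylated RNAs.

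The 8 samples were 4 Control and 4 SiglecXII colons. The Control mice carried Villin1-Cre-ERT, a tamoxifen-activated Cre driven in intestinal epithelium by the Villin1 promoter, and the SiglecXII mice carried it together with human SIGLEC12 at ROSA26, behind a CAG promoter and a loxP-flanked EGFP-stop cassette that Cre removes. The methods describe littermate females of 8 weeks, given tamoxifen at 10 mg/ml on 5 days, with colon taken 7 days after the last dose. Design text and labels differ on the number of mice per group, so the p-values below measure the spread between the 4 samples of each group, which may be partly technical. The table lists mouse genes, and the human transgene was not analysed here.

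The labels name a total RNA kit for these libraries, and the methods of the study name a kit for mRNA. The level of RNAs that mostly lack poly(A) therefore bears on what the libraries held. Values are TPM, the abundance of a transcript scaled by its length and to a fixed total per sample, which keeps no sequencing depth. The epithelial markers Epcam, Krt8 and Car1 were high in all 8 samples (Epcam at 1216 to 1614 TPM). The 12 B cell markers, of which Bcl6, Rgs13 and S1pr2 were highest, summed to 5.64 to 12.9 TPM, and the 7 T cell markers, of which Cd3g, Cd3e and Trac were highest, to 1.19 to 3.17 TPM, so lymphocyte markers were near 0.

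The stem-loop defines the 3′ end of these RNAs, and it is shown here for members whose levels are described below and for 1 variant that also has it. Each line gives the RNA-sense strand of GRCm38 in DNA letters, 5′ to 3′, with the stem-loop in capitals and its flanks in lower case.
Hist1h1c: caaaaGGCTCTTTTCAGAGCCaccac
Hist2h2aa2: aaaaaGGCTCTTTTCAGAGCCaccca
Hist3h2a: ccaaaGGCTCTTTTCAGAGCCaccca
Hist2h3c2: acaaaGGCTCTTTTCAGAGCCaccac
Hist1h4h: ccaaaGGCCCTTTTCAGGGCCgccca
Hist1h4i: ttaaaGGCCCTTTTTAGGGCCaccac
Hist4h4: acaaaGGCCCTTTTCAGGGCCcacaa
H2afx: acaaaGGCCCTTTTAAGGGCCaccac
These lie in the annotated 3′ untranslated regions at chr13:23739507-23739532 on the plus strand (Hist1h1c), chr3:96239779-96239804 on the minus strand (Hist2h2aa2), chr11:58955167-58955192 on the plus strand (Hist3h2a), chr3:96238480-96238505 on the minus strand (Hist2h3c2), chr13:23531453-23531478 on the plus strand (Hist1h4h), chr13:22040961-22040986 on the minus strand (Hist1h4i), chr6:136803993-136804018 on the minus strand (Hist4h4) and chr9:44335235-44335260 on the plus strand (H2afx). Hist2h2aa1, the inverted neighbour of Hist2h2aa2, has the same letters.

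A histone 3′ stem-loop, here 6 base pairs closed by 4 loop bases, was looked for on the RNA strand after the stop codon of every transcript. The search used a set histone pattern of 16 letters. It had to begin with GG, end with CC and hold only set letters between, so hairpins of other letters were not counted. A stem-loop of this pattern was found in 46 members, 21 to 58 bases after the stop codon. Among genes with at least 60 annotated bases after the stop, 44 of 48 members (91.7%) and 6 of 20676 other genes (0.029%) held it within the first 100. H2afx, the variant that is phosphorylated at DNA breaks, was 1 of those 6. The letters followed the class. All 34 members of the H1, H2A, H2B and H3 classes began the stem with GGCTC, and none of the 12 H4 members did, with GGCCC or GGTCC in its place. Within the letters that the pattern allowed there were 8 different stem-loops, of which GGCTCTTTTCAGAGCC was shared by 26 members.

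The starts of the genes also shared letters. All 70 members were matched in RefSeq, and 62 of them had a promoter window of 300 bases there, 63 windows in all. CCAAT, read on both strands, was in 85.7% of the members' windows and in 37.3% of 32788 others, and TATAAA, read the same way, in 55.6% and 13.5%. The motifs can share at most 1 letter, and a match is a run of letters, not a bound site.

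The gene models disagreed on where these RNAs end. Of the 46 members with a stem-loop, 23 had a GENCODE transcript that ran more than 100 bases past it, and RefSeq ended 21 of those 23 within 10 bases. For Hist1h1c the GENCODE model ran 840 bases past the stem-loop and RefSeq stopped 4 bases after it. For Hist3h2a the values were 1643 and 5 bases, and for Hist4h4 2445 and 5 bases. Hist1h2be, listed among members known to have poly(A)-tailed RNA, ran 1861 bases past it in both. The other 23 ended within 100 bases of the stem-loop in GENCODE, Hist2h2aa1 and Hist2h2aa2 at 35 bases and Hist1h4h at 46. A further 13 members were annotated to the stop codon only, and the 3 pseudogenes had no coding sequence. In 8 members with untranslated sequence, among them the spliced Hist1h2bc, no stem-loop was found. Some of these 8 models are too short to hold one, as for Hist1h2af (1 base after the stop) and Hist1h2ah (2 bases). A poly(A) signal (AATAAA or ATTAAA) lay in the last 50 bases of 12 of the 23 long models and of 2 of the 23 short ones. TPM divides by model length, so a member's level depends on the model used, and the transcript set behind the deposited values was not tested.

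**Figure D1:**
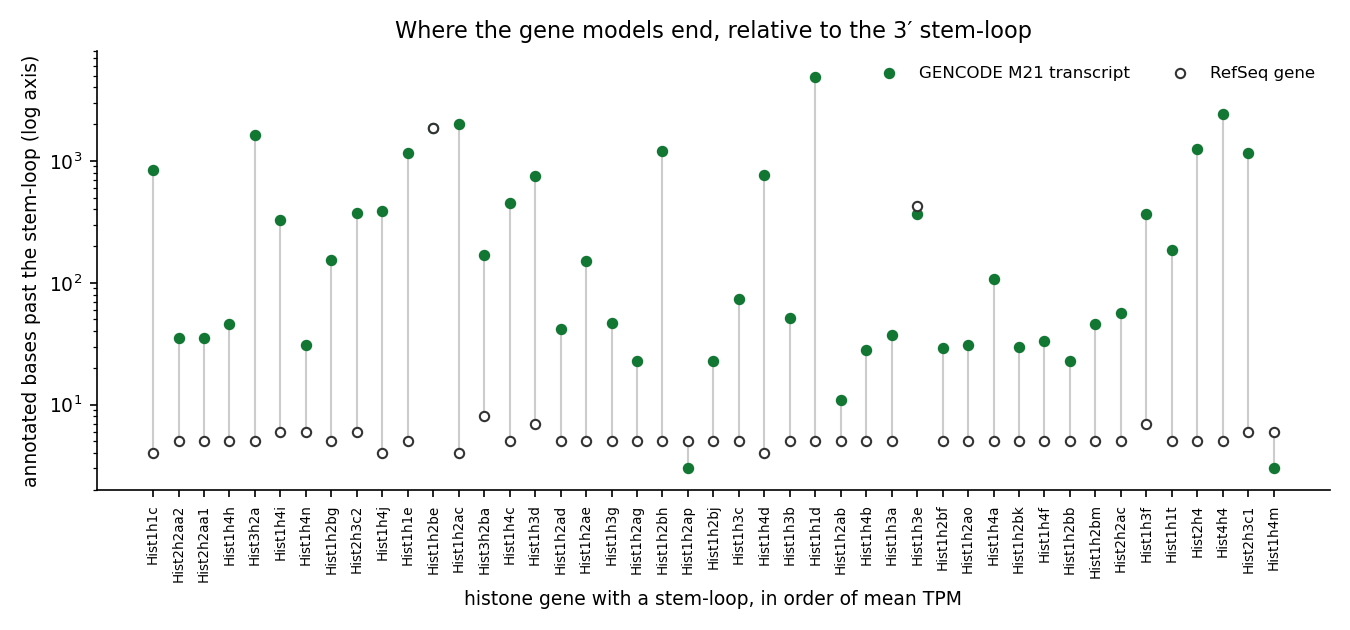
Annotated bases past the 3′ stem-loop (log axis) in the GENCODE M21 transcript and in the RefSeq gene, for 45 histone genes ordered by mean TPM. RefSeq ends lie within 10 bases for 43 of the 46 genes with a stem-loop, while GENCODE ends spread up to 4884 bases; Hist1h2bp, whose RefSeq model runs 13623 bases past it, is not drawn.

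Levels were spread over a very wide range, and 4 genes held most of the signal. Mean TPM was at least 100 for 3 members, 10 to 100 for 5, 1 to 10 for 22 and under 1 for 40, with a median member at 0.80 TPM. Of all genes, 25.4% reached a mean of 1 TPM, against 30 of the 70 members. Hist1h1c, Hist1h2bc, Hist2h2aa2 and Hist2h2aa1 together took 86.7% to 88.6% of the members' summed TPM in every sample. Hist1h2ba, a testis H2B, and Hist1h4m were listed at 0 in all 8 samples, 21 others were at 0 in some samples, and 47 were above 0 in all 8.

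Hist1h1c, a linker histone gene, was the highest, 328th of all genes by mean TPM. It read 386, 532, 458 and 466 TPM in Control samples 1 to 4 and 287, 422, 427 and 382 TPM in SiglecXII samples 1 to 4. SiglecXII 1 was the lowest sample and Control 2 the highest, and the groups overlapped. The mean was 461 ± 60.02 TPM in Control and 379 ± 64.7 TPM in SiglecXII (SD, n = 4 each).

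Hist1h2bc encodes H2B and came next. Its values were 216, 305, 278 and 322 TPM in Control and 221, 294, 317 and 330 TPM in SiglecXII. Sample 1 was the lowest of each group, and the ranges nearly coincided. Both Hist1h1c and Hist1h2bc are members known to have poly(A)-tailed RNA.

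Hist2h2aa2 and Hist2h2aa1 encode H2A and are near-identical copies. All 31-base words of both transcripts were shared with another gene, so the split between them is uncertain. Hist2h2aa1 also shared 100% of its words with Gm20633, a gene outside the members. Their sum avoids the split between the 2 copies, but not a split with Gm20633. The sum was 218, 227, 207 and 250 TPM in Control and 200, 252, 251 and 286 TPM in SiglecXII, a mean of 226 ± 18.4 and 247 ± 35.5 TPM. These 2 genes are not on the list of poly(A)-tailed members, and their models end 35 bases past the stem-loop. They made up 18.5% to 25.3% of the members' TPM.

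The order of these 4 genes was the same in all 8 samples. Below them the order was loose. Hist1h4h (19.4 TPM on average), Hist3h2a (15.7 TPM), Hist1h4i (12.96 TPM) and Hist1h4n (12.7 TPM) exchanged places between samples, since each neighbour was above the next in 6, 6 and 4 of 8 samples. Hist1h4n was above Hist1h4k (6.54 TPM) in 8 of 8, and Hist1h4k above Hist1h2bg (6.20 TPM) in 6 of 8. Hist2h2be, at 4.98 TPM, and Hist2h3c2, at 3.64 TPM, closed the 12 highest. Among these 8 genes, 5 encode H4 or H3 (Hist1h4h, Hist1h4i, Hist1h4n, Hist1h4k and Hist2h3c2).

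**Figure D2:**
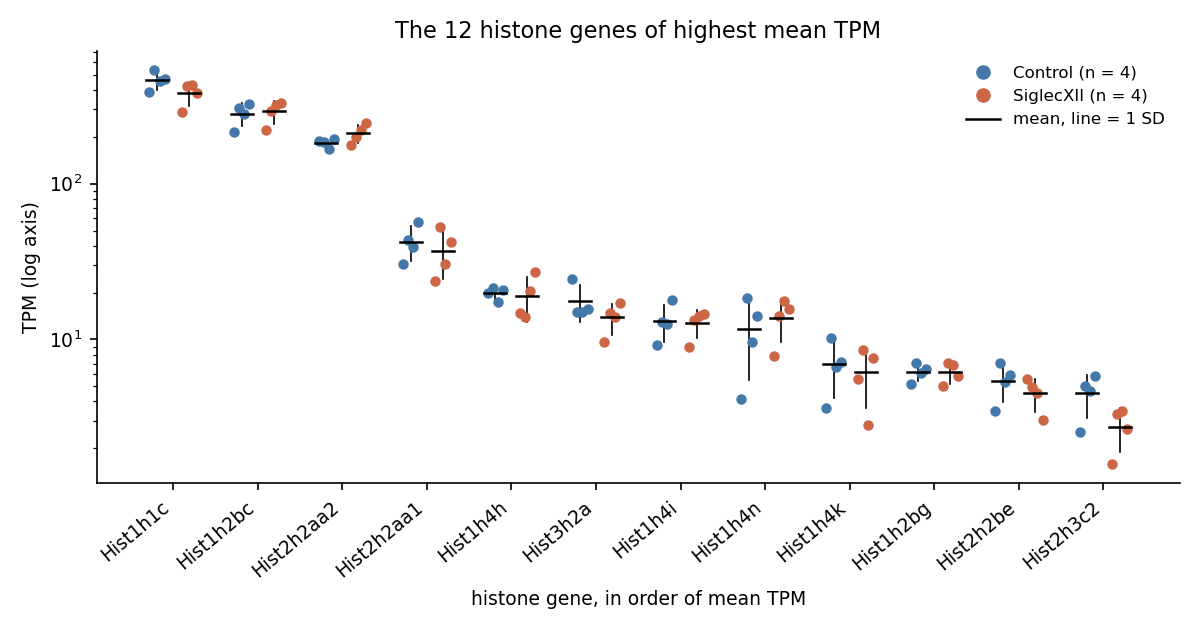
TPM (log axis) of the 12 histone genes of highest mean TPM in each of the 4 Control and 4 SiglecXII samples, with the mean and 1 SD of each group. Hist1h1c, Hist1h2bc and Hist2h2aa2 lie between 168 and 532 TPM, Hist2h2aa1 between 23.5 and 56.3 TPM, and the groups overlap for all 12.

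Shared sequence limits single members throughout. At a word length of 31 bases the median member shared 61.03% of its transcript with other genes, 43 members shared over 50% and 23 over 80%. Hist2h3c1 and Hist2h3b shared all of theirs, and a 0 for such a gene can be a failed split rather than a silent gene. Hist1h1c shared 11.4% and Hist2h2be 2.8%. Hist3h2a shared 32.1% of its words with Trim17, a gene that is not a histone gene.

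The classes were far from equal. H1 summed to 465 ± 61.3 TPM in Control and 383 ± 65.8 TPM in SiglecXII, H2A to 258 ± 20.9 and 275 ± 38.2 TPM, and H2B to 305 ± 50.3 and 313 ± 50.004 TPM. H4 summed to 59.05 ± 14.2 and 59.3 ± 12.6 TPM and H3 to 15.02 ± 4.73 and 13.2 ± 3.42 TPM (SD, n = 4 each). The 4 core classes enter the nucleosome in equal number, yet H2A and H2B each stood above H4, and H4 above H3, in all 8 samples. H4 had no member on the poly(A) list apart from Hist4h4, and H3 had none. H2A had only Hist1h2ac, at 2.26 TPM on average, and most of its sum was Hist2h2aa1 and Hist2h2aa2, which are not on the list. Whether poly(A) tails bear on the class sums was not tested.

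**Figure D3:**
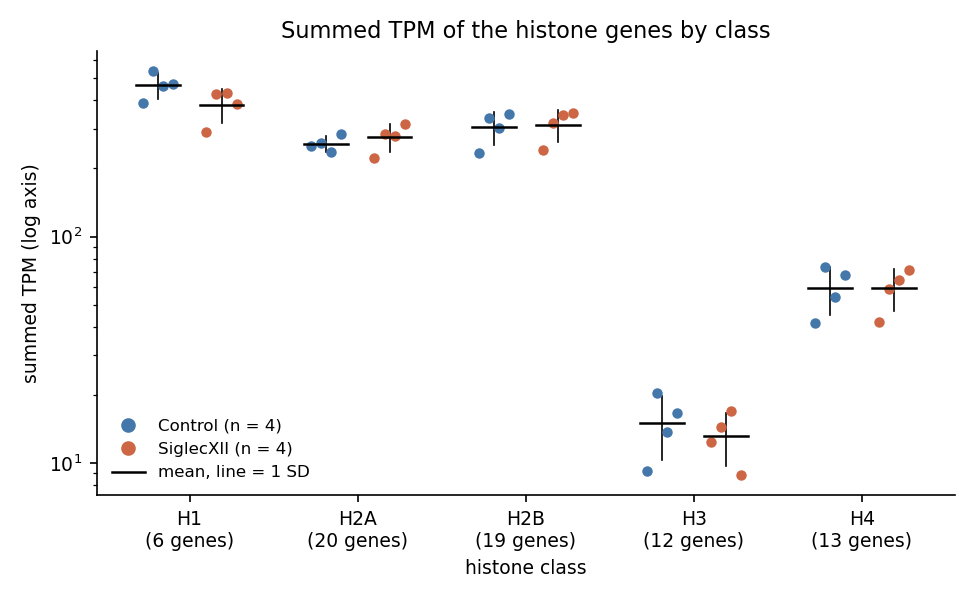
Summed TPM (log axis) of the histone genes of each class in every sample, with the mean and 1 SD of each group (n = 4). H3 lies between 8.84 and 20.4 TPM and H4 between 41.6 and 73.3 TPM, below the H1, H2A and H2B sums, which start at 223 TPM.

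All 70 members together summed to 925, 1227, 1068 and 1187 TPM in Control and 807, 1101, 1134 and 1130 TPM in SiglecXII, which was 0.081% to 0.123% of each sample's total. SiglecXII 1 was the lowest and Control 1 the next, and the groups overlapped. The mean was 1102 ± 136 TPM in Control and 1043 ± 158 TPM in SiglecXII, a log2 ratio of -0.08. The ratio was 0.026 without SiglecXII 1, 0.049 without Hist1h1c and 0.20 after each sample was divided by its median, so its sign depends on these choices. The 7 members known to have poly(A)-tailed RNA held 63.6% to 70.0% of this sum. The other 63 summed to 317 to 388 TPM in Control and 289 to 411 TPM in SiglecXII, and most of that was Hist2h2aa1 and Hist2h2aa2. Apart from the 4 highest, the 66 remaining genes summed to 99.4 to 163 TPM.

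The replacement variants were higher than the members. Their 12 genes summed to 2455 to 2741 TPM in Control and 1993 to 2418 TPM in SiglecXII, so the members reached 0.34 to 0.57 of the variants' sum. H3f3a (797 to 968 TPM) and H3f3b (406 to 621 TPM), both encoding H3.3, were each above the whole H3 class of the members, and H2afz (251 to 344 TPM) encodes H2A.Z. The 21 S phase genes summed to 355 to 473 TPM in Control and 197 to 381 TPM in SiglecXII. SiglecXII 4 had the lowest S phase sum (197 TPM) and a members' sum of 1130 TPM, above 4 of the other 7 samples.

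**Figure D4:**
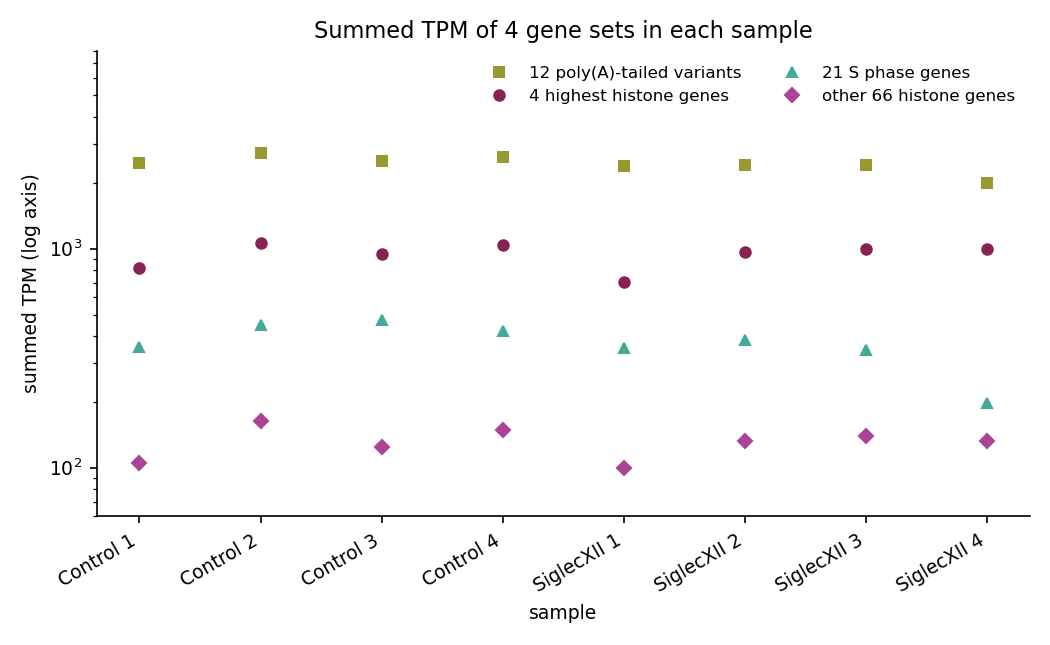
Summed TPM (log axis) of 4 gene sets in each sample: the 4 highest histone genes, the other 66, the 12 poly(A)-tailed variants and the 21 S phase genes. The variants lie highest in every sample (1993 to 2741 TPM), the other 66 histone genes lowest (99.4 to 163 TPM), and SiglecXII 4 is lowest for the S phase genes at 197 TPM.

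Of 30 symbols of other RNAs taken to mostly lack poly(A), 25 were found, in 28 rows of the table. They summed to 1141 to 1202 TPM in Control and 1188 to 2318 TPM in SiglecXII, above the members' own sum in 7 of 8 samples. The 3 highest were the mitochondrial rRNAs mt-Rnr2, at 459 to 1163 TPM, and mt-Rnr1, at 313 to 718 TPM, and Gm42418, at 106 to 235 TPM. Whether these mitochondrial rRNAs lack poly(A) was not tested, so the sum is not a measure of tail-less RNA alone. SiglecXII 4, with the highest sum (2318 TPM), also had the highest share of TPM from the mitochondrial genome (12.8%). The RNA of 7SK (Rn7sk), which holds the elongation factor P-TEFb, read 20.8 to 42.0 TPM, and 7SL (Rn7s1), the RNA of the signal recognition particle, 19.2 to 36.7 TPM. Rpph1, the RNase P RNA, read 7.14 to 18.8 TPM. The U7 RNA that guides the cut at the histone stem-loop (Rnu7) was listed at 0 in all 8 samples, as were Rnu11, Rnu12 and Rnu1b1. These levels were measured beside no library of known kind, so a total RNA and an mRNA library cannot be told apart from them here.

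The comparison of SiglecXII with Control asks what expression of Siglec-XII in the epithelium does to colon transcripts at baseline. No histone gene passed the test. It was run by limma on log2(TPM + 1) over 13164 genes that reached 1 TPM in 4 or more samples, a filter that kept 32 members and left out 38. At an adjusted p of 0.05, limma called 0 of the 32 members and 5 of all tested genes (0.038%). At an unadjusted p of 0.05 it called 0 members and 1167 genes (8.87%), and with a fold-change of 2 as well 0 members and 121 genes (0.919%). No tested member had groups that did not overlap, against 5.11% of the tested genes.

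Of the 32 tested members, 22 had a log2 difference below 0 and 10 above, with a median of -0.07, while 78.1% of all tested genes were below 0 with a median of -0.15. With each sample centred on its own median the members' split turned to 9 below and 23 above, with a median of 0.14 against 0.06 for all genes. The direction of the members' median therefore depends on the scale. When 1 sample was left out it ran from -0.18 (without Control 1) to -0.012 (without Control 2). With array weights it was -0.098 against -0.062 for all genes, and without SiglecXII 3 -0.15 against -0.12. On the log2(TPM + 1) scale the bounds of the 95% intervals of the difference ran from -1.11 to 1.58 over the 32 members. The added 1 shrinks the fold-change of low members on this scale, and with 0.1 in its place the difference of Hist1h1e went from -0.42 to -0.59, so these bounds do not limit the fold-change in TPM. The median spread between samples of 1 group was 0.33 (SD, log2) for the members and 0.24 for all tested genes. Among genes with a mean log2(TPM + 1) of 1 to 3, it was 0.34 for 22 members and 0.27 for 4677 genes. Hist2h2aa2 varied least (0.15) and Hist1h2ai most (0.80).

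**Figure D5:**
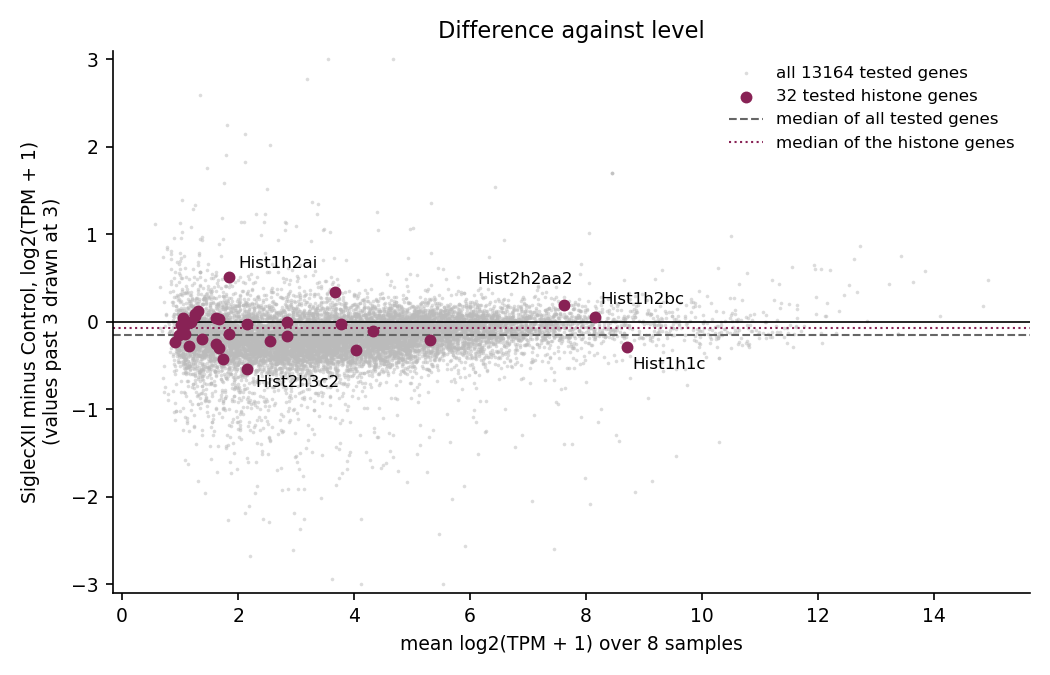
Difference of SiglecXII from Control against mean level, both as log2(TPM + 1), for all 13164 tested genes and for the 32 tested histone genes. The members lie between -0.54 and 0.52, with a median of -0.07 (dotted) beside -0.15 for all genes (dashed).

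The member with the smallest p was Hist2h3c2, an H3 gene, at 2.53, 5.05, 4.69 and 5.78 TPM in Control and 1.59, 3.34, 3.46 and 2.64 TPM in SiglecXII. Control 1 lay among the SiglecXII samples. The log2 difference of Hist2h3c2 was -0.54 (SE 0.25, 95% interval -1.11 to 0.02, limma adjusted p = 0.515). Hist2h3c2 shared 64.2% of its 31-base words with Gm20634, a gene outside the members, so its level is uncertain.

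For Hist1h1c the log2 difference was -0.29 (SE 0.15, 95% interval -0.62 to 0.05, limma adjusted p = 0.515). The other tested linker histone genes, Hist1h1e and Hist1h1d, had values of the same sign, and neither passed at an unadjusted p of 0.05. Hist1h1e had -0.42 (SE 0.25), at 1.05 to 4.69 TPM over the 8 samples. Hist1h1d had -0.23 (SE 0.14), at 0.48 to 1.23 TPM with only 4 samples at 1 TPM or more, the least the filter allowed. Its GENCODE model ran 4884 bases past the stem-loop, and RefSeq stopped 5 bases after it. Hist1h2bc, in contrast, had a log2 difference of 0.05 (SE 0.16, 95% interval -0.31 to 0.42).

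The tested genes Hist1h2ai (H2A), Hist1h4n (H4) and Hist2h2aa2 (H2A) had the largest differences above 0. Hist1h2ai was at 0.52 (SE 0.47), with Control 1 listed at 0 and the other 7 samples at 2.21 to 4.18 TPM. Its difference was -0.014 without Control 1 and 1.25 with a pseudocount of 0.1. Hist1h4n was at 0.34 (SE 0.40), with Control 1 again lowest at 4.16 TPM and the other samples at 7.84 to 18.4 TPM. Hist2h2aa2 was at 0.19 (SE 0.11), at 168 to 194 TPM in Control and 176 to 243 TPM in SiglecXII. Each interval included 0.

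By class, 3 of 3 tested H1 genes and 5 of 5 tested H3 genes had a difference below 0, as did 4 of 9 H2A, 6 of 9 H2B and 4 of 6 H4 genes. By annotated end, 12 of the 15 tested members whose GENCODE model runs over 100 bases past the stem-loop were below 0, with a median of -0.20, and 7 of the 11 that end near it were, with a median of -0.03. Over all tested genes 78.1% were below 0, with a median of -0.15, and the H3 differences ran from -0.54 to -0.002. With each sample centred on its own median, 9 of the 32 members were below 0. No member passed the test, the splits by class and by end were not tested, and the classes were not tested against each other.

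The 38 members left out of the test were low. Among these 38 members, 2 had groups that did not overlap, against 1.21% of all genes left out. That share also counts genes at 0 in all 8 samples, whose groups cannot be apart. Only 2 members were at 0 throughout, so the members cannot be weighed against that share. The share without such genes was not computed. Hist1h2ah, an H2A gene, read 0.75, 1.60, 1.37 and 0.78 TPM in Control and was listed at 0 in all 4 SiglecXII samples. It shared 92.5% of its words with other genes, 88.0% with Hist1h2ad, whose own values overlapped (0.55 to 3.24 TPM in Control and 0.41 to 2.42 TPM in SiglecXII). Hist1h1b, a linker histone gene that shared 3.9%, read 0.24, 0.33, 0.28 and 0.27 TPM in Control and 0, 0.21, 0.07 and 0.20 TPM in SiglecXII.

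Hist4h4, an H4 gene that stands alone on chromosome 6, read 0.04 to 0.11 TPM in Control and 0.02 to 0.06 TPM in SiglecXII. The testis histone genes were at the floor, with Hist1h1t at 0 to 0.31 TPM and Hist1h2aa at 0 to 0.21 TPM. Of the remaining members of the poly(A) list, Hist2h2be read 3.03 to 7.04 TPM, Hist1h2be 1.31 to 3.63 TPM, Hist1h2ac 1.05 to 2.77 TPM and Hist1h2bk 0.22 to 0.93 TPM, and the groups overlapped for all 4.

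Genes that make and handle histone RNA were mostly below 0. Over all tested genes limma called 7.67% lower and 1.19% higher at an unadjusted p of 0.05. For transcription and 3′ processing of histone RNA, it called 8 of 23 tested genes lower at that limit and none higher, with a median of -0.27 and all 23 below 0. They were Slbp, the stem-loop binding protein, Casp8ap2 (FLASH), which is needed for the cut, Ccne1 (cyclin E1), the cleavage factor Cstf2t, Srrt, and Snrpe, Snrpf and Snrpg, proteins shared by the U7 and spliceosomal particles. Slbp read 31.5 to 36.4 TPM in Control and 18.7 to 30.6 TPM in SiglecXII, with no overlap (log2 difference -0.37, SE 0.15, limma adjusted p = 0.515). Snrpb and Snrpd3, also of those particles and with Snrpe the 3 highest of the list, read 118 to 168 and 47.4 to 62.3 TPM. The list summed to 727 to 766 TPM in Control, to 693 and 687 TPM in SiglecXII 1 and 2 and to 625 and 519 TPM in SiglecXII 3 and 4. No gene of the list passed at an adjusted p of 0.05.

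For the S phase list, limma called 4 of 21 tested genes lower at an unadjusted p of 0.05, the replication helicase subunits Mcm3, Mcm4 and Mcm6 and the ribonucleotide reductase subunit Rrm2. None was higher, the median was -0.51 and all 21 were below 0. The 3 highest of the list were Pcna (49.98 to 84.8 TPM), Tyms (38.0 to 57.1 TPM) and Top2a (12.7 to 58.7 TPM). Mcm4 had the smallest p (log2 difference -0.72, SE 0.24, limma adjusted p = 0.515), at 7.72 to 9.86 TPM in Control and 2.78 to 7.74 TPM in SiglecXII. Among 19 histone chaperones, which carry histones to and from DNA, 3 were lower at an unadjusted p of 0.05 (Nap1l1, Hjurp and Atrx) with a median of -0.38, and the 3 highest were Rbbp7 (48.1 to 106 TPM), Nap1l4 (44.2 to 60.6 TPM) and Nap1l1 (28.6 to 74.3 TPM). Among the 10 tested variants H1f0 (-0.47, SE 0.20) and H2afj (-0.37, SE 0.15) were lower by the same measure, with a median of -0.16. Among 15 tested RNAs taken to mostly lack poly(A), the mitochondrial mt-Rnr1 was higher (0.47, SE 0.19), with a list median of -0.01. In all these lists no gene passed at an adjusted p of 0.05, and 78.1% of all tested genes were below 0. With each sample centred on its own median, the median of all tested genes was 0.06. Neither these lists nor that of histone RNA processing were described on that scale.

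Other measures also differed between samples. The mitochondrial share kept the groups apart, while the smooth muscle and myeloid sums overlapped. SiglecXII 3 and 4 lay apart from the other 6 samples on the first principal component, which held 40.3% of the variance, and their median gene stood 0.16 and 0.30 below the mean of all samples (log2). The share of TPM from the mitochondrial genome was 5.74% to 7.38% in Control and 8.50% to 12.8% in SiglecXII. All 6 smooth muscle markers were below 0, and 3 of them (Myh11, Des and Cnn1) had an unadjusted p of 0.05 or less, with the list summing to 623 to 1003 TPM in Control and 303 to 651 TPM in SiglecXII. The 3 highest of them were Tagln, Actg2 and Acta2. Of 7 myeloid markers 4 were tested, and S100a8 (log2 difference -2.61, SE 0.46) and S100a9 (-2.94, SE 0.59) had an unadjusted p of 0.05 or less, while 1 of the 4, Ly6g, was above 0 (0.02, SE 0.14). All 7 summed to 273 to 466 TPM in Control and 234 to 366 TPM in SiglecXII, of which Ly6g made up 230 to 356 TPM. Fewer cells of a type and less RNA per cell cannot be told apart in such samples, and the part of these measures in the members' values was not tested. Without SiglecXII 3 and 4, limma called 0 members and 0 of all genes at an adjusted p of 0.05. At an unadjusted p of 0.05 it called 1 member, Hist1h4h, and 351 of all genes. The members' median was then -0.12 against 0.004 for all genes.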

How the data were processed

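RNA of 8 distal colon samples (4 Control, 4 SiglecXII, grouped by the sample titles) was used. The authors deposited 1 value per gene and sample, log2(TPM + 1), for 52143 Ensembl identifiers. The submitters' processing notes name kallisto 0.45.0 and GRCm38, and the methods of the study name a human reference. TPM was recovered as 2 to the power of the value, minus 1. It keeps no depth, so no counting intervals were computed, and the 4 samples per group limit the precision.

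The members, the gene lists and the tests were chosen with earlier results of these data known. Groups were compared with the limma package (version 3.58.1, R 4.3.3), by lmFit and trended eBayes with group as the only term, on the genes that reached 1 TPM in 4 or more samples, with Benjamini-Hochberg adjustment over all 13164. Sums, classes and medians are descriptions with no test. The genes named are the 12 members of highest mean TPM, the 3 with the largest difference each way, the member on chromosome 6, the poly(A) and testis members, and from other lists the 3 highest and those at an unadjusted p of 0.05 or less. Hist1h2ah, Hist1h1b, Hist1h1d, Hist1h2ad, Hist2h3c1, Hist2h3b, Hist1h4m, Hist1h2bp, Slbp, Srrt, Ccne1, H2afx, Rn7sk, Rn7s1, Rpph1, Rnu7, Rnu11, Rnu12 and Rnu1b1 were named after their values were seen. Sequences, ends and positions are from GENCODE M21 (GRCm38), which held 98.3% of the identifiers, and from RefSeq (GRCm38.p6). Alternatives were a pseudocount of 0.1, no filter or a TPM of 5, median centring, quantile normalization, array weights, the sample number as a block and leaving out samples. Samples after AOM/DSS were not analysed here.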

Additional observations from a re-analysis of the deposited data

Results flagged for a closer look

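With 53 groups of 4 samples examined, 4 had 1 sample whose gap to its nearest neighbour took up more of the group's range than Dixon's 95% limit. Chance flags about 1 in 20 such groups, 2.65 here.

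In Control, Hist3h2a was highest in sample 1, at 4.67 on the log2(TPM + 1) scale with the next sample at 4.07, a gap of 0.895 of the range. Hist1h2ac was lowest in the same sample, at 1.04 with the next at 1.86, a gap of 0.987. In SiglecXII, Hist1h4i was lowest in sample 1, at 3.31 with the next at 3.85, a gap of 0.830. The summed TPM of all members was also lowest in SiglecXII 1, at 807 TPM with the next sample at 1101 TPM, a gap of 0.898. No cause was tested for any of these.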

How the results depend on the processing

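In all 16 alternative fits limma called 0 histone genes at an adjusted p of 0.05. At an unadjusted p of 0.05 it called 0 members as reported, 6 with array weights, 2 with no filter (1 of them with a fold-change of 2), 1 without SiglecXII 3 and 4 (a choice made after seeing the data) and 0 to 4 when 1 sample was left out, 4 of them without Control 1. The numbers shared by the groups do not pair the samples (correlations of deviations -0.16, -0.20, 0.10 and -0.00 for numbers 1 to 4), and with the replicate block limma called 3 members (Hist2h3c2, Hist1h1c and Hist1h1e) at an unadjusted p of 0.05. Over all genes the count of 5 at an adjusted p of 0.05 became 3 with no filter, 3 with a TPM of 5, 18 with array weights, 0 without SiglecXII 3 and 4, and 1 to 6 when 1 sample was left out. That of 1167 at an unadjusted p became 2043, 699, 1851, 351, and 483 to 2358, the last without SiglecXII 1. Without Control 1, where 4 members were called, it was 1116.

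The median of all genes moved to 0.060 with median centring, and the log2 ratio of the members' summed TPM to 0.20 after division by each sample's median (-0.21 to 0.20 over its 15 alternatives). The following differences changed sign, and none was called. Median centring gave 0.00019 for Hist2h2aa1, 0.11 for Hist1h4h, 0.18 for Hist1h4i, 0.046 for Hist1h4k and 0.21 for Hist1h2bg. Quantile normalization gave 0.065 for Hist1h4h, 0.18 for Hist1h4i, 0.068 for Hist1h4k, 0.24 for Hist1h2bg and 0.027 for Hist2h2be. Array weights gave -0.059 for Hist1h2bc, 0.0058 for Hist2h2aa1, 0.023 for Hist1h4k and 0.055 for Hist1h2bg. Without SiglecXII 3 and 4, Hist1h2bc was at -0.12 and Hist1h4k at 0.066. When 1 sample was left out, Hist1h2bc ran from -0.068 to 0.18, Hist1h4h from -0.28 to 0.025, Hist1h4i from -0.17 to 0.12, Hist1h4n from -0.033 to 0.60, Hist1h4k from -0.40 to 0.11, Hist1h2bg from -0.077 to 0.078, Hist1h2ai from -0.014 to 0.78 and Hist1h2ac from -0.18 to 0.12. The cause was not tested.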

Other observations

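The ratio of Hist1h1c to Hist1h2bc, looked at after the values were seen and given with no test, was 1.79, 1.75, 1.65 and 1.45 in Control samples 1 to 4 and 1.30, 1.43, 1.34 and 1.16 in SiglecXII samples 1 to 4. The groups did not overlap, although the TPM of each gene did. The nearest samples were Control 4 at 1.45 and SiglecXII 2 at 1.43. Of single tested genes 5.11% had groups that did not overlap. The share among other pairs of genes was not computed, so 1 pair chosen in this way cannot be weighed. Both values of a ratio come from the same library, so it does not depend on the total to which TPM is scaled. The lowest ratio was that of SiglecXII 4, which also had the highest mitochondrial share (12.8%).

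The number of members at a TPM of 1 or more was 25, 35, 32 and 34 in Control and 29, 32, 34 and 27 in SiglecXII.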
